A study of Mus musculus with 4 samples.

Results

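In mouse fibroblasts, 233 probes gave no clear signal in the control, gave a clear signal at 4 h after a critical oxidative stress (cOS-pulse) and had no expressed gene just upstream. They were chosen from the measured values of those 2 arrays, in steps. Of 39429 probes on the array, 18371 were not well above background in the control by the flag of the scanner software, and 2903 of these (15.8%) were well above background at 4 h. Of the 2903, 2404 carried a gene name, and 301 of those had a scaled log2 value above -2.7 at 4 h, where the scale is the log2 signal minus the 75th percentile of the array. The last step removed 68 probes that had a probe of another gene, well above background in the control or at 4 h, within 20 kb upstream on the same strand. This left the 233 switched-on isolated probes (members), with 224 of the 24104 gene names on the array. The limit of -2.7 equals a signal of 140 on the 4 h array. Each of the 233 was at least 2-fold higher at 4 h than in the control, which the rule fixes and which held for 6.77% of all probes on the array.

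Total RNA came from NIH-3T3:Per2-Luc cells, an established mouse fibroblast line that carries a luciferase driven by the *Per2* promoter, and was hybridized to 4 one-color arrays. Cells of 3 arrays were pulsed with 5 mM H2O2 for 10 min and collected 4 h, 20 h and 32 h later, and the control received fresh medium without H2O2 (0 mM) and is labelled 4 h. All 4 arrays carried the same reporter line, so the reporter is shared by control and pulsed cells. There was 1 array per condition, so no test was run, the error between cultures is unknown, and precision is limited by the 4 arrays. No control at 20 h or 32 h was analysed here, so time after the medium change and time after the pulse cannot be told apart on the later arrays.

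Cells that meet a pulse of hydrogen peroxide switch on several defence programs. Nrf2 drives genes that make glutathione and reduce thioredoxin, ATF4 drives amino acid uptake and synthesis, p53 drives cell cycle arrest, NF-kappa-B drives cytokines, and heat shock factors drive chaperones. Many genes of other tissues stay closed in fibroblasts. A gene that is off can come on through its own promoter, or its sequence can be transcribed from an active gene upstream.

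The fibroblast label was checked against markers. Of 11 fibroblast genes, 10 were well above background on every array, and *Fap* was on none. The highest signal among them was that of *Dcn*, with log2 values of 8.53 in the control and 8.84, 8.25 and 8.50 at 4 h, 20 h and 32 h. Of the 10, 7 were lower at 4 h than in the control, among them *Pdgfra* (4.46 to 2.91) and *Pdgfrb* (2.70 to 1.34) by more than 2-fold. The summed linear signal of the 11 fibroblast genes, relative to the 75th percentile, was 1094 in the control and 1117 at 4 h. None of 4 muscle markers (*Myod1*, *Des*, *Myog*, *Ckm*) was well above background on any array. The leukocyte marker *Ptprc* was also at background on all arrays, as was *Emr1*. *Itgam*, with the highest signal of 5 leukocyte markers, *Cd3e* and *Cd68* were well above background on all of them. The summed linear signal of the 5, most of it from *Itgam* (4.35 in the control and 4.92 at 4 h, log2), was 21.4 in the control and 32.7, 11.8 and 12.2 at 4 h, 20 h and 32 h, relative to the 75th percentile, and their part in the results was not tested. Of the markers of other cell types, 3 of 4 endothelial, 1 of 5 epithelial, 3 of 4 neuronal and 1 of 5 germ line genes were detected in the control, and 3, 2, 3 and 2 at 4 h. *Tek*, *Epcam*, *Cdh1*, *Ddx4* and *Dazl* were on none of the arrays, while the neuronal *Snap25* had 3.92 in the control and 4.48 at 4 h. The summed signals went from 3.22 in the control to 4.29 at 4 h for the endothelial, 0.596 to 1.29 for the epithelial, 16.7 to 24.3 for the neuronal and 0.164 to 0.581 for the germ line list. Among markers detected on both arrays, the largest moves were those of the germ line gene *Prm1* (-3.40 to -0.99) and of *Cd68* (-1.33 to 0.75), and the part of these cell types in the results was not tested either. Fewer expressing cells and less RNA per cell cannot be told apart in bulk RNA.

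The words silent and isolated need limits. By a looser flag, positive and significant signal, 138 of the 233 probes (59.2%) already had some signal in the control, against 35.2% of all 18371 probes not well above background there. For 35 of the 224 genes, another probe on the array was well above background in the control, so it was the probe and not the gene that was off. Without these genes, 195 probes of 189 genes remained. Isolation held for the same strand and upstream only. Another gene's probe that was well above background lay within 20 kb in some direction for 86 of the 233 (36.9%), and on the opposite strand for 70 (30%). Among 11218 isolated named probes that were off in the control and at 4 h, the shares were 24.3% and 20.0%.

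The sequences of the probes that carry the main results are shown first, because each value below is the signal of a single 60-base oligonucleotide. They are those of the brightest gene *Col20a1* (a fibril-associated collagen, with its 2 probes), of *Il18r1* (the receptor chain that binds interleukin 18), of *Slc7a11* (the cystine/glutamate antiporter), of *Sgk2* (a serum/glucocorticoid-regulated kinase), of *Nlrp5* (an oocyte protein), of *Fgf18* (a growth factor) and of *Cdkn1a* (the cell cycle inhibitor p21). Positions are those of the array annotation in mm9. *Col20a1* probe 1 lies at chr2:180752070-180752129 and probe 2 at chr2:180750502-180750561, both on the plus strand. *Il18r1* (chr1:40557541-40557600), *Sgk2* (chr2:162839803-162839862), *Nlrp5* (chr7:24226882-24226940) and *Cdkn1a* (chr17:29235299-29235358) are also on the plus strand, *Slc7a11* (chr3:50169700-50169759) and *Fgf18* (chr11:33017474-33017533) on the minus strand. No part is marked in capitals here.
Col20a1 probe 1: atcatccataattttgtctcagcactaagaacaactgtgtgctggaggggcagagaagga
Col20a1 probe 2: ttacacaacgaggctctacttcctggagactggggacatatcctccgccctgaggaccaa
Il18r1: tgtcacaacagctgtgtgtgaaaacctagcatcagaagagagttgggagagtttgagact
Slc7a11: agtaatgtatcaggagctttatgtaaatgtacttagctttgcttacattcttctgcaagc
Sgk2: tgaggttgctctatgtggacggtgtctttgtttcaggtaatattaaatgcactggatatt
Nlrp5: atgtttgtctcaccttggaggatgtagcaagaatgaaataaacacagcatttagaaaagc
Fgf18: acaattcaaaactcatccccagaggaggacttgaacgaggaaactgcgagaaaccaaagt
Cdkn1a: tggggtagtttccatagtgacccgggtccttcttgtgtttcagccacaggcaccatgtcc

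At 4 h after cOS-pulse, the 233 probes had a median log2 value of -1.96 and a range from -2.69 to 1.60. Their median was -6.28 in the control, near the median of -6.79 of the 153 negative control spots there. A probe below background has only a bound, so each rise was taken over its own control signal or, if higher, over the dimmest signal that counted as well above background in the control (-4.76). On this basis the median probe was at least 6.85-fold higher at 4 h, and single probes ranged from at least 3.58-fold to at least 82.1-fold. With normexp background correction, 601 probes passed the rule and their median lowest rise was 1.04 on the log2 scale, against 2.78 here. A rise of 8-fold or more was found for 97 probes, and of 16-fold or more for 31. Only 11 exceeded 0, the 75th percentile of the array, 43 exceeded -1, and 112 lay at or below -2. For 230 of the 233 the value came from 1 spot, and their median spot error at 4 h was 0.15 on the log2 scale.

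**Figure D1:**
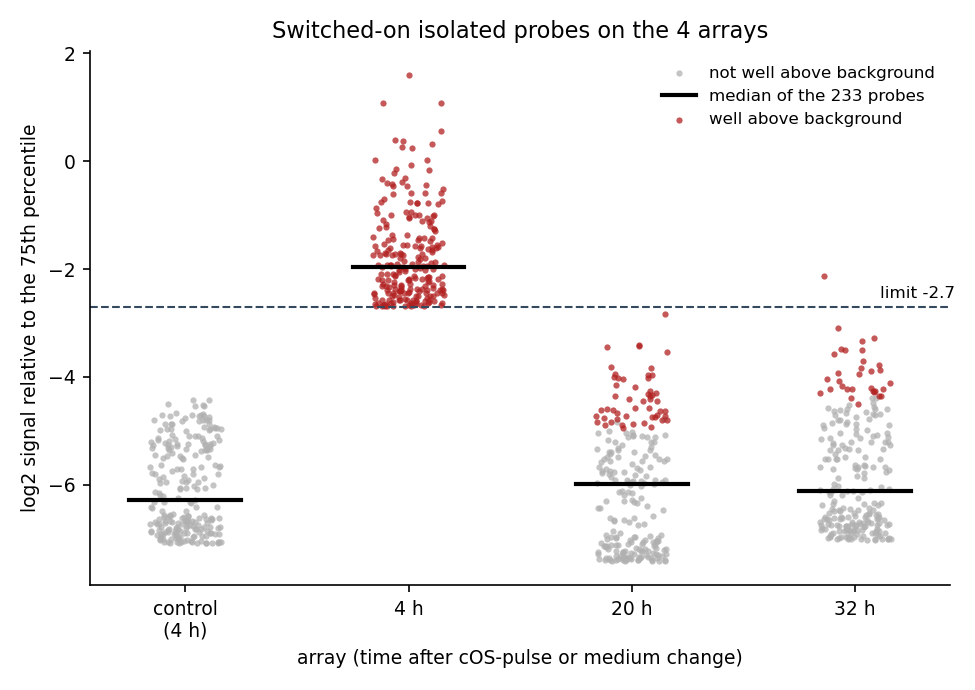
Log2 signal relative to the 75th percentile of the array (vertical axis) of the 233 switched-on isolated probes on each of the 4 arrays (horizontal axis). Red points are well above background, grey points are not, black bars are medians and the dashed line is the limit of -2.7 at 4 h. The medians lie at -6.28 in the control, -1.96 at 4 h, -5.98 at 20 h and -6.11 at 32 h.

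The probes with the highest signal at 4 h are given next. Signal also depends on the sequence of a probe, so an order between probes is not an order of transcript levels. *Col20a1* had log2 values of -5.33, 1.60, -5.09 and -4.88 on the 4 arrays (control, then 4 h, 20 h and 32 h) with its first probe, and -4.95, 1.08, -4.79 and -4.60 with its second. Only on the 4 h array were these 2 probes detected, with rises over the control of at least 82.1-fold and 57.2-fold, or 27.0-fold and 18.5-fold with normexp background correction. The bounds of the other named probes were also lower with that correction. On the log2 scale they went from 5.83 to 4.45 for *Il18r1*, from 5.15 to 3.62 for *Rasgef1a* and from 4.70 to 3.07 for *Hkdc1*. *Il18r1* had -6.20, 1.07, -6.30 and -5.37, at least 57.0-fold higher at 4 h. *Myo15*, an unconventional myosin of inner ear hair cells, had -5.10, 0.56, -5.56 and -5.04, at least 39.8-fold higher. Like *Col20a1*, these 2 genes were above background on the 4 h array alone.

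*Rasgef1a*, a guanine nucleotide exchange factor for Ras proteins, had log2 values of -6.70, 0.39, -7.12 and -6.62, and *Sgk2* had -6.98, 0.37, -7.36 and -6.85. *Slc7a11*, which brings in cystine for glutathione synthesis, had -7.09, 0.26, -7.41 and -7.00. These rises were at least 35.6-fold, 35.0-fold and 32.4-fold. All 3 probes were near the level of negative control spots on the other 3 arrays, where those spots had medians of -6.79, -7.21 and -6.73 in the control and at 20 h and 32 h.

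*Nlrp5* and *Fgf18* behaved otherwise after 4 h. *Nlrp5* had -5.10 in the control, 0.24 at 4 h, -4.19 at 20 h and -3.95 at 32 h, and *Fgf18* had -4.52, 0.03, -4.26 and -4.25. Both were at least 32.1-fold and 23.4-fold higher at 4 h and stayed just above background on both later arrays. The other genes among the 12 brightest probes were *Tmem116*, a transmembrane protein (at least 27.7-fold, and 5.12-fold with another probe that was detected on every array), *Hkdc1*, a hexokinase-like enzyme (at least 25.9-fold), and the Riken clone 9530057J20Rik (at least 33.5-fold), whose probe shares 20 or more bases with probes of other transcripts.

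**Figure D2:**
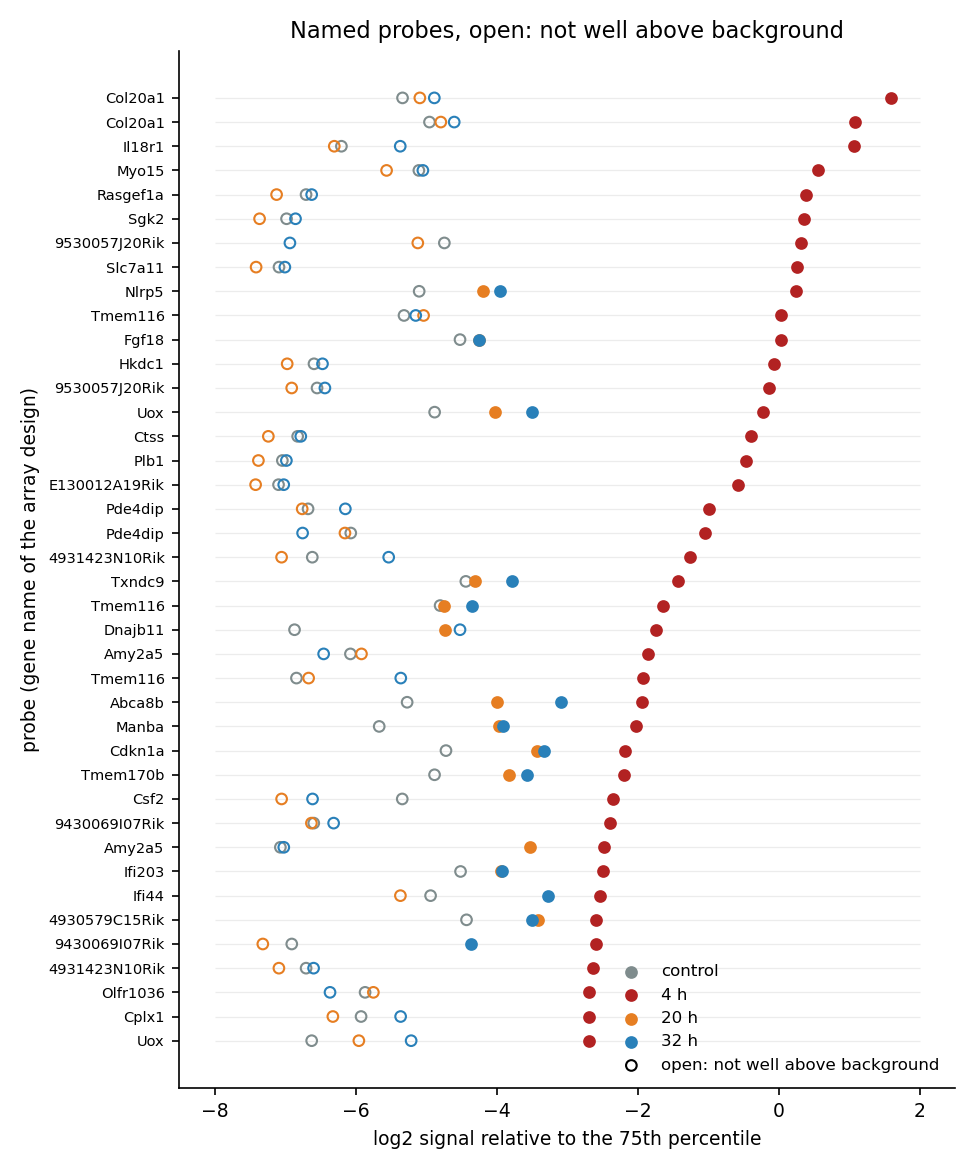
Log2 signal relative to the 75th percentile (horizontal axis) of the 40 named switched-on probes (vertical axis, ordered by the 4 h value), with colors for the 4 arrays and open circles for values not well above background. The first *Col20a1* probe is highest at 1.60, and the closed circles at 20 h and 32 h mark the probes that stayed detected.

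At the other end, the limit cut through a dense range of values. Just above it lay *Olfr1036* (an olfactory receptor), *Cplx1* (complexin of synaptic terminals) and 1 probe of *Uox* (urate oxidase), all at -2.69. Just below it were *Cdk14*, *Olfr1239* and *Olfr530*, all less than 0.01 below it. *Cdk14* (-5.03 in the control, -4.46 at 20 h, well above background) would have joined with a limit lower by less than its spot error of 0.16.

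Next, the levels at 20 h and 32 h were examined, arrays that the rule did not use. At 20 h, 52 of the 233 probes (22.3%) were well above background, compared with 7.09% of all probes that were not so in the control. At 32 h, 32 (13.7%) were, compared with 4.32%. Both shares were higher than these backgrounds, as were those of the other switched-on probes. Among the 68 probes with an expressed upstream neighbour, 20 (29.4%) and 9 (13.2%) were detected at 20 h and 32 h, and among the 2103 named probes switched on at or below the limit, 552 (26.2%) and 246 (11.7%) were. The share of members thus lay below both of these groups at 20 h and slightly above both at 32 h. Which of the later arrays had the higher share depended on the limit of detection. With a single limit of -4.73 for all arrays, the share was 15.9% at 20 h and 21.0% at 32 h, against 5.31% and 6.98% of all probes off in the control.

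**Figure D3:**
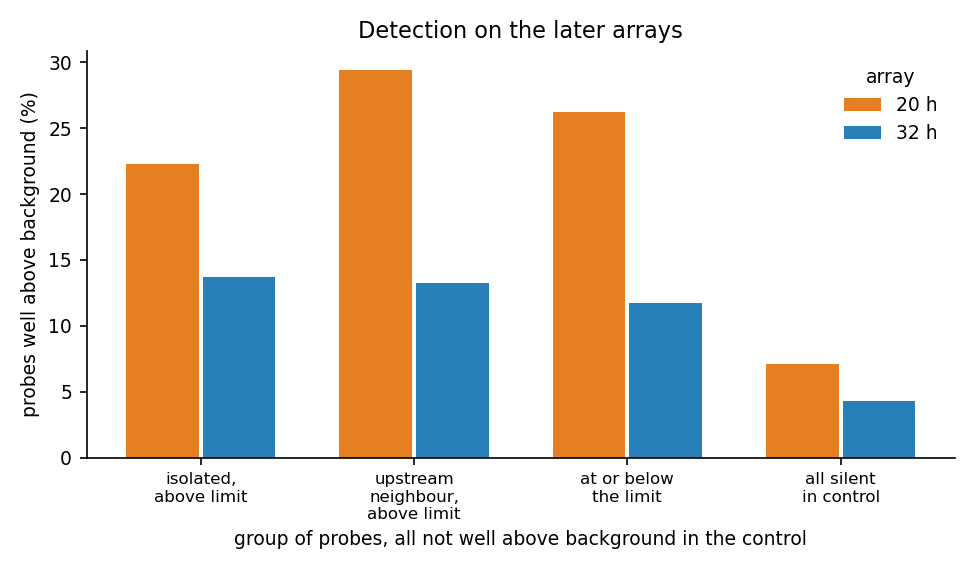
Share of probes well above background (vertical axis, percent) at 20 h (orange) and 32 h (blue) in 4 groups of probes that were not so in the control (horizontal axis). The 233 isolated switched-on probes reach 22.3% and 13.7%, similar to the 2 other switched-on groups and above the 7.09% and 4.32% of all 18371 such probes.

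Most members had left the detected range by 20 h. In all, 171 of the 233 were below background on both later arrays, 22 were above it on both, 30 at 20 h only and 10 at 32 h only. The shares below background on both (73.4%) and above it on both (9.44%) compare with 90.4% and 1.80% of all probes off in the control, with 64.7% and 7.35% of the 68 with an expressed upstream neighbour, and with 69.8% and 7.75% of the named probes switched on at or below the limit. None exceeded the limit of -2.7 at 20 h, and 1 did so at 32 h. The median fall from 4 h was 4.46 on the log2 scale to 20 h and 4.20 to 32 h by the measured signals, or at least 7.92-fold and 6.36-fold with signals below background at their bound. Of the 233, 231 were at least 2-fold lower at 20 h than at 4 h and 229 at 32 h, while 9.15% and 8.31% of all probes were. Since the members were chosen for their 4 h value, a lower value elsewhere is in part set by the choice and no weight is placed on these counts.

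The 8 probes with the largest fall to 20 h by measured signal included *Sgk2*, *Slc7a11*, *Rasgef1a*, *Il18r1* and *Hkdc1*, described above. Signals below background have no order, so this is a rule for naming and not a ranking, and by the bound the first *Col20a1* probe fell most, at least 103-fold. The others were *Plb1* (phospholipase B, -7.04, -0.47, -7.38 and -6.98 on the 4 arrays in order of time), *Ctss* (the lysosomal protease cathepsin S, -6.82, -0.39, -7.24 and -6.78) and E130012A19Rik, listed in RefSeq as *Epop* (a factor bound to Polycomb complexes, -7.09, -0.58, -7.42 and -7.02). They were at least 25-fold, 26.3-fold and 23.1-fold lower at 20 h than at 4 h. None of the 3 was well above background at 20 h or 32 h.

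The members that stayed highest were genes of varied function. *Cdkn1a* had -4.72 in the control, -2.17 at 4 h, -3.43 at 20 h and -3.33 at 32 h, at least 2.45-fold and 2.61-fold above the control on the later arrays. *Abca8b*, a transporter of the ABC family, had -5.27, -1.93, -4.00 and -3.09, and *Uox* had -4.88, -0.22, -4.02 and -3.49 with its brighter probe. Both were higher at 32 h than at 20 h by less than 2-fold. *Tmem170b* (-4.88, -2.2, -3.82, -3.57), *Manba* (lysosomal beta-mannosidase, -5.66, -2.02, -3.96, -3.90), *Ifi203* (an interferon-inducible nuclear protein, -4.51, -2.49, -3.94, -3.92) and *Txndc9* (a thioredoxin-like protein, -4.44, -1.43, -4.30, -3.77) followed the same order, highest at 4 h and above background throughout the later arrays. 4930579C15Rik, in RefSeq *Eqtn* of the sperm acrosome, fell least of these, from -2.58 at 4 h to -3.42 and -3.50. Of these genes, *Cdkn1a*, *Ifi203*, *Txndc9* and 4930579C15Rik had other probes that were detected in the control, and those of *Ifi203* went from 0.98 to 1.32 and from -1.14 to -1.25 at 4 h. A bright *Cdkn1a* probe had 0.40, 3.97, 1.70 and 1.72 on the 4 arrays, above the control throughout. A dimmer *Cdkn1a* probe had -3.91, -1.94, -4.54 and -4.40, which was below the control at 20 h (1.55-fold) and 32 h (1.41-fold).

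At least 2-fold above the control were 5 probes at 20 h (0.763% of all probes were) and 8 at 32 h (1.15%). At 20 h these were *Cdkn1a*, 4930579C15Rik, *Eaf2*, *Amy2a5* and *Nox3*, of which the last 3 were below background again at 32 h. *Nox3*, an NADPH oxidase of the inner ear named here after its values were seen, had -7.06, -2.63, -2.83 and -7.01, so that it was as bright at 20 h as at 4 h and at the level of negative controls on the other arrays. At 32 h the Riken clone 4930471E19Rik stood out, also named after its values were seen, with -4.80, -1.67, -5.57 and -2.14. Between the later arrays, 6 members were at least 2-fold higher at 32 h (1.06% of all probes were) and 3 at least 2-fold lower (0.497%). *Ifi44*, an interferon-stimulated gene, was among the 6, with -4.94, -2.54, -5.36 and -3.27.

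Of all 24104 named genes, 224 (0.929%) had a member probe, and 6 of the pathway lists held 1 such gene each. These were 1 of 34 genes for Nrf2 and for NF-kappa-B, 1 of 28 for p53, 1 of 24 for ATF4 and CHOP, 1 of 16 for ER stress and 1 of 29 for interferon, and with a single gene per list no share is read from them. *Slc7a11* was the member on the Nrf2 list and on the list of ATF4 and CHOP targets, *Cdkn1a* on the p53 list, *Csf2* (granulocyte-macrophage colony-stimulating factor) on the NF-kappa-B list, *Dnajb11* (a co-chaperone of the endoplasmic reticulum) on the ER stress list and *Ifi44* on the interferon list. *Csf2* had -5.34, -2.35, -7.05 and -6.61, at least 5.32-fold higher at 4 h and at background later. *Dnajb11* had -6.87, -1.74, -4.72 and -4.52, above background at 4 h and just so at 20 h. No member was on the lists of HSF1 targets, immediate early genes, core clock genes, histones, inflammasome and death genes, or metallothioneins and zinc genes. The same held for 2-cell-like embryo genes, serum response and matrix genes, and germ line, neuron or leukocyte genes. These lists hold 7 to 34 genes each, so that the share over all genes gives less than 1 per list. Genes of such roles can lie outside these short lists, as did the members *Nlrp5* (an oocyte protein) and *Cplx1* (complexin of synaptic terminals).

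Most genes on the pathway lists that hold these 5 genes were already detected in the control with at least 1 probe. At least 2-fold higher at 4 h were 13 of 34 genes on the array for Nrf2, 14 of 28 for p53, 13 of 34 for NF-kappa-B, 13 of 24 for ATF4 and CHOP, 6 of 16 for ER stress and 9 of 29 for interferon-stimulated genes, compared with 8.55% of the 24104 named genes. At least 2-fold lower were 0, 1, 2, 0, 0 and 2 genes of these lists. Not detected with any probe in the control were only 4, 5, 7, 4, 1 and 10 of their genes. The rule works on probes, and *Cdkn1a* and *Dnajb11* met it although another of their probes was detected in the control.

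Among gene families by name, members were counted against the genes that were off in the control. Of all named genes, 10353 had no probe well above background in the control, and 189 of these (1.83%) had a member probe. Interleukins and their receptors had 4 of 46 (8.70%), namely *Il18r1*, *Il18rap*, *Il20* and *Il31*. Cytochrome P450 genes had 3 of 60 (*Cyp3a25*, *Cyp3a57* and *Cyp3a59*), and solute carriers 5 of 152 (*Slc7a11*, *Slc8a2*, *Slc17a9*, *Slc3a1* and *Slc2a5*). These families are small, and the counts are a description. Olfactory receptors, the largest listed family off in the control apart from Riken clones and Gm-numbered models, had 2 of 1028 (0.195%). Vomeronasal receptors had 1 of 229, and potassium channels 0 of 70. Riken clones had 35 of 1812 (1.93%) and Gm-numbered models 13 of 1053 (1.23%).

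The examples from these families were chosen after their values were seen. *Slc8a2*, a sodium/calcium exchanger, was the brightest solute carrier after *Slc7a11*, with -4.80, -0.16, -4.74 and -4.40 (at least 24.2-fold at 4 h). *Slc17a9*, the vesicular nucleotide transporter, had -6.73, -1.40, -5.34 and -6.69 (at least 10.3-fold), and *Cyp3a25*, a drug-metabolising enzyme of liver, had -6.82, -1.42, -7.23 and -6.78 (at least 10.2-fold). Of these only *Slc8a2* was well above background at a later time, at 20 h. *Il18rap*, the second chain of the interleukin 18 receptor, had -6.69, -2.37, -5.94 and -5.84, and *Il31*, an itch cytokine of T cells, had -6.92, -1.91, -7.33 and -6.87. *Il20* had -5.25, -2.41, -4.04 and -4.22 and stayed above background at both later times, unlike the other 3 of its family. A second *Il20* probe was at background on all 4 arrays (-7.08, -7.26, -7.42 and -7.03).

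Genes with several member probes are given next. Probes were not placed in exons, so these values do not compare positions along a transcript. Of the 224 genes, 8 had more than 1 member probe: *Tmem116* had 3, and *Col20a1*, *Uox*, *Pde4dip*, *Amy2a5*, 9530057J20Rik, 4931423N10Rik and 9430069I07Rik had 2 each. Probes of a gene differed in brightness and in their later values. The probes of *Uox* had -0.22 and -2.69 at 4 h, and only the first was detected later. Those of *Tmem116* had 0.03, -1.64 and -1.93 at 4 h, and only the second was above background at 20 h (-4.74) and 32 h (-4.35). Those of *Amy2a5*, pancreatic amylase, had -1.86 and -2.48 at 4 h and -5.92 and -3.53 at 20 h, of which only the -3.53 was above background. The probes of *Pde4dip* (myomegalin, a centrosome and Golgi protein) overlap in sequence and were close at 4 h, at -0.99 and -1.04, so they are not independent.

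Of the 224 genes, 73 had 102 probes on the array that were not members. Of these, 23 (22.5%) were at least 2-fold higher at 4 h and 2 were at least 2-fold lower, and 6.77% of all probes were higher. Among the 58 that were off in the control, 17 (29.3%) were on at 4 h, compared with 15.8% of all such probes. By position, 8 of the 102 overlap a member probe of the gene, and among the other 94, 18 (19.1%) were higher and 15 of 53 (28.3%) came on. The largest rises measured on both arrays were those of *Tcp10b* (-3.89 to 0.26, 17.8-fold), *Fgf18* (-3.05 to 0.84, 14.8-fold), *Stmn4* (-4.05 to -0.48, 11.9-fold) and *Cdkn1a* (0.40 to 3.97, 11.9-fold), which were picked from the values. For *Fgf18* and *Stmn4* that probe overlaps the member probe and is not independent of it, while for *Tcp10b* and *Cdkn1a* it does not. In other genes a bright probe rose less than 2-fold or went the other way. *Dnajb11* rose from 3.20 to 3.70 (1.42-fold) and *Txndc9* from 2.67 to 3.22 (1.46-fold) with probes that were bright in the control, while *Pde4dip* fell from 1.92 to 1.01 with 1 other probe. *Phactr2* and *Arvcf* were at least 5.30-fold and 2.56-fold lower at 4 h with 1 other probe each, opposite to the member probe, and their second other probe was at background on all 4 arrays.

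**Figure D4:**
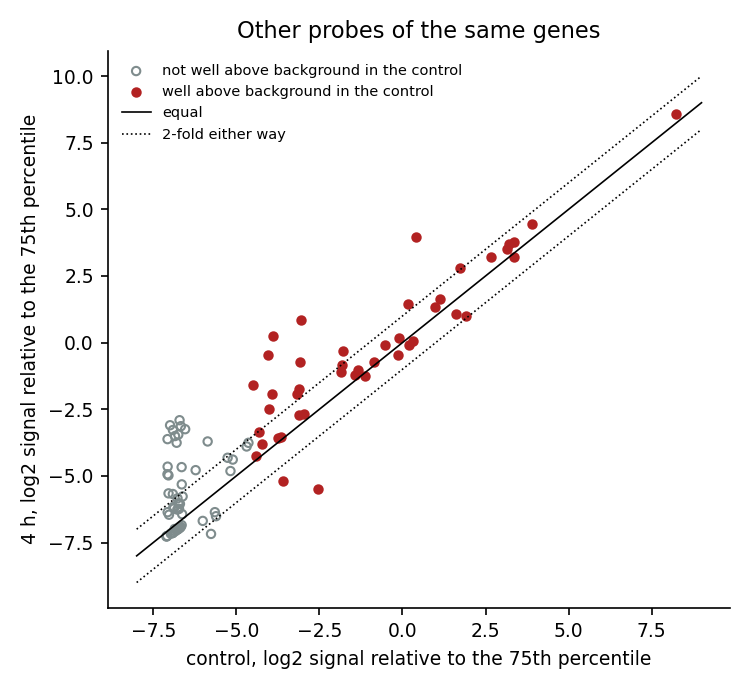
Control (horizontal axis) against 4 h (vertical axis), log2 signal relative to the 75th percentile, for the 102 other probes of genes with a switched-on isolated probe. Red points were well above background in the control (44 probes), open points were not (58), the solid line marks equal values and the dotted lines 2-fold. Of all 102, 23 lie at least 2-fold higher by a measured ratio or a bound and 2 lower.

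Probes can bind related transcripts, but only probe sequences of the array were compared here, and transcripts were not searched. Each member was searched for 20 or more bases shared with a probe of another gene, and 8 of the 233 had such a match. For 2 of them (*Amy2a5* and *Gm3643*) the other probe was well above background in the control. The pairs of *Gm10639* with *Gsta2* and of *Amy2a5* with *Amy1* are shown because these probes could bind both transcripts. The other member probe of *Amy2a5*, which had -1.86 at 4 h, shares no such stretch with a probe of another gene. The longest shared run is in capitals, 30 bases in the first pair, whose probes also share most of the bases before it (chr9:78153243-78153302 and chr9:78178856-78178915, mm9) and 23 in the second (chr3:113084781-113084840 and chr3:113258901-113258960, mm9).
Gm10639: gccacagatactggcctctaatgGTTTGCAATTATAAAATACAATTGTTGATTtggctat
Gsta2: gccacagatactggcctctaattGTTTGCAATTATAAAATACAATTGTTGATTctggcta
Amy2a5: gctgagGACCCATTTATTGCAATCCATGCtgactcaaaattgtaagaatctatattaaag
Amy1: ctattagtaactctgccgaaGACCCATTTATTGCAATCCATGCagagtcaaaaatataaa

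*Gsta2*, a glutathione transferase on the Nrf2 list, was not a member because its 4 h value of -3.09 lay below the limit, and *Gm10639* had -4.98, -1.69, -5.46 and -6.55. *Gm3776*, which shares 29 bases with *Gm10639* and lies in the same group on chromosome 9, had -6.67, -2.44, -7.07 and -6.57. All 3 were above background at 4 h only. *Amy1*, salivary and liver amylase, was measured in the control and rose from -4.61 to 1.11, 52.6-fold.

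The members lay on 22 chromosomes or unplaced pieces of the mm9 annotation, 115 on the plus and 118 on the minus strand. They made up 1.59% of the 14651 named probes with a position that were off in the control. Among chromosomes with more than 100 such probes, the share ran from 0.636% (4 of 629) on chromosome 14 to 3.47% (27 of 779) on chromosome 5. Pieces with few probes, such as Y (1 of 14), give no usable share. In 11 places, members of different genes lay within 100 kb of each other, 23 probes in all. No such count is given for other probes off in the control, so no clustering is read from it. *Il18r1* and *Il18rap*, neighbours in the interleukin receptor cluster of chromosome 1, spanned 48.2 kb. *Dnajb11* and *Fetub* spanned 60.2 kb on chromosome 16, *Akp3* and *Ecel1* 20.7 kb on chromosome 1, and *Dnase2b* and *Uox* 50.3 kb on chromosome 3. The partners were on the same strand in some places (*Il18r1* and *Il18rap*) and on opposite strands in others (*Akp3* and *Ecel1*).

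The rule asked only for 20 kb without an expressed neighbour, and the distance beyond that was left free. The nearest probe of another gene that was well above background in the control or at 4 h lay at a median of 77.1 kb upstream of members, against 193 kb for 11218 isolated named probes that were off in the control and at 4 h. Between 20 and 50 kb lay 33.0% of members and 14.6% of those probes, and beyond 200 kb 23.2% and 49.2%. To keep the 4 h array out of the definition of a neighbour, distances were also taken to probes well above background in the control. The medians were then 83.7 kb and 227 kb upstream and 123 kb and 218 kb downstream. Members thus lay nearer to expressed genes on both sides than other isolated probes that stayed off, and the role of local gene density was not tested.

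The same order was seen when all named probes that were off in the control were split by distance, including those that the rule left out. Of the probes with an expressed neighbour up to 20 kb upstream on the same strand, 4.94% (59 of 1194) came on above the limit at 4 h. The share was 3.89% at 20 to 50 kb, 2.87% at 50 to 100 kb, 1.94% at 100 to 200 kb and 0.843% (58 of 6884) beyond. Downstream it was 3.25%, 3.04%, 2.87%, 2.15% and 1.35% over the same distances. The fall was thus steeper upstream, 4.62-fold from 20 to 50 kb to beyond 200 kb against 2.26-fold downstream. Counted at any level, 27.8% of the nearest and 10.8% of the farthest probes were on at 4 h by upstream distance, and 24.1% and 12.5% by downstream distance. On the 20 h array, the nearest and farthest probes were well above background in 11.4% and 5.91% upstream and in 12% and 5.85% downstream, so the nearest were above the farthest there on both sides. At 32 h the shares were 5.44% and 3.65% upstream, where those at 20 to 50 kb (5.81%) were higher than the nearest, and 7.55% and 3.68% downstream. The fall from 20 to 50 kb to beyond 200 kb was 1.64-fold upstream and 1.54-fold downstream at 20 h, and 1.59-fold and 1.47-fold at 32 h. From the nearest probes it was 1.93-fold and 2.06-fold at 20 h, and 1.49-fold and 2.05-fold at 32 h. These later shares count detection at any level. Counted so, the fall at 4 h from 20 to 50 kb was 2.23-fold upstream and 1.68-fold downstream, and from the nearest probes 2.57-fold and 1.93-fold. A steeper fall upstream was thus seen at 4 h, less so at any level than above the limit. At 20 h and 32 h a steeper fall upstream was seen by a smaller margin from 20 to 50 kb, and not from the nearest probes.

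**Figure D5:**
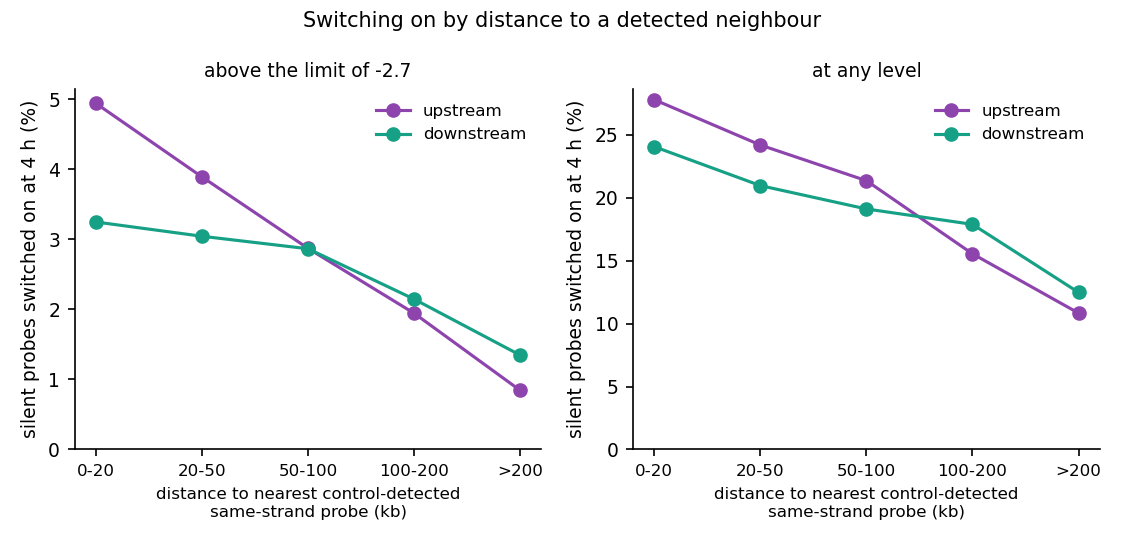
Share of named probes off in the control that were on at 4 h (vertical axis, percent), above the limit of -2.7 (left) and at any level (right), by distance in kb to the nearest probe of another gene on the same strand that was well above background in the control (horizontal axis), upstream (purple) and downstream (green). On the left the upstream share falls from 4.94% to 0.843% and the downstream share from 3.25% to 1.35%.

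The change of the neighbours themselves was also counted. Of the 128 members whose nearest control-expressed upstream neighbour lay at 20 to 100 kb, 18 (14.1%) had a neighbour that was at least 2-fold higher at 4 h and 4 (3.13%) one that was at least 2-fold lower. For the 3011 isolated probes that stayed off and had a neighbour at that distance, 8.10% of neighbours were higher and 9.50% lower. Downstream the order was the same, with 9 of 84 neighbours of members higher and 5 (5.95%) lower, against 6.47% and 10.6% of 2768. Most neighbours of members changed less than 2-fold, and on both sides those past the threshold were more often higher than lower.

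Promoters were taken from RefSeq (GRCm38.p6, 250 bases before to 50 after each start), which held 221 windows for 172 of the 224 genes. The median ratio of observed to expected CpG was 0.391 in members, 0.278 in genes off in the control and 0.735 in genes detected there. A ratio above 0.6 was found in 31.7% of member windows, 22.6% and 65.4%, respectively, and in 36% of all 32544 windows. The member windows include genes with another probe detected in the control. Without these, 175 windows of 142 genes had a median ratio of 0.358, and 26.3% were above 0.6, nearer to the genes that were off.

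Motifs were searched as plain letters on both strands, and shares are given for member windows and then for all windows. AP-1 (TGANTCA) was in 9.05% and 7.79%, CRE (TGACGTCA) in 2.26% and 1.80%, and ARE, the antioxidant element (TGACNNNGC), in 14.5% and 12.4%. The core of the heat shock element (GAANNTTC) was in 7.69% and 7.89%, the E-box (CACGTG) in 9.50% and 7.17%, and the D-box (TTANGTAA) in 1.36% and 2.29%. The GC box (GGGCGG) was in 39.4% and 35.9%, the STAT motif (TTCNNNGAA) in 6.33% and 8.33%, and the TATA box (TATAAA, plus strand only) in 8.14% and 8.28%. The NF-kappa-B motif was in 8.14% and 8.49%, the p53 half-site in 4.98% and 8.36%, and the CArG box, the motif of serum response factor, in 3.62% (8 windows) and 1.64%. In genes off in the control, the CArG box was in 1.59%, the p53 half-site in 7.79%, the E-box in 5.63%, the GC box in 28.7% and the TATA box in 12.1%. The others were in 9.71% (AP-1), 1.27% (CRE), 11.7% (ARE), 8.87% (heat shock), 2.76% (D-box), 9.0% (STAT) and 7.95% (NF-kappa-B), so that AP-1 was above the share of all windows in members and below that of genes off in the control. The counts behind the rarer motifs are small, and a match is only a match of letters.

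The windows of 2 members on the pathway lists are printed, *Csf2* (chr11:54249850-54250149, minus strand) and *Slc7a11* (chr3:50443564-50443863, minus strand), both GRCm38.p6. *Csf2* is the member on the NF-kappa-B list, and *Slc7a11* the member on the Nrf2 list and on the list of ATF4 and CHOP targets. Capitals mark a match to the AP-1, CRE, ARE, heat shock, NF-kappa-B or TATA letters. *Csf2* held 1, to the ARE letters on the reverse strand, starting 4 bases before the start site, and *Slc7a11* held none of these 6. Not marked are a GC box and a p53 half-site in *Csf2* and a STAT motif in *Slc7a11*. No motif specific to ATF4 and CHOP was searched, so nothing is read here about such a site in *Slc7a11*.
Csf2 promoter: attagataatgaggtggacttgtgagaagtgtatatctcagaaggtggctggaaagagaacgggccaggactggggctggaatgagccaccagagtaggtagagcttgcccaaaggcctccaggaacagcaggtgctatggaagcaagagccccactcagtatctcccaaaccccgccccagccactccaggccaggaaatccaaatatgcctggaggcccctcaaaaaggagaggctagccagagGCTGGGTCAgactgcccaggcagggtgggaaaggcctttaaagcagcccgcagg
Slc7a11 promoter: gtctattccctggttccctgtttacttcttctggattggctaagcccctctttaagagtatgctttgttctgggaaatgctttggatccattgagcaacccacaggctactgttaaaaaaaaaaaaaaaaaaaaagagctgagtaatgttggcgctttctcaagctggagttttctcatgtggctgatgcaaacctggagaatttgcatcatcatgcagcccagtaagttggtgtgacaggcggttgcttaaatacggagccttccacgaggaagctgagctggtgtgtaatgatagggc

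The opposite change was found for fewer probes, between arrays that differ in detection. At 4 h 23295 probes (59.1%) were well above background, against 21057 (53.4%) in the control. The limit of -2.7 equals a signal of 140 at 4 h and of 170 in the control. The part of these differences in the counts was not tested. With control and 4 h exchanged, the same rule gave 46 probes of 45 genes that were on in the control and off at 4 h, against 233, and 3.16% of the probes detected in the control were off at 4 h at any level. Their median control value was -2.38 and their highest -0.88. Of the 46, 18 (39.1%) were well above background again at 20 h and 18 at 32 h, against 50.4% and 35.8% of all 665 probes lost at 4 h, and 15 and 13 of them were above -2.7. *Kif2c*, a mitotic kinesin named after its values were seen, was lost with 2 probes, the brighter of which had -1.18, -4.54, -1.46 and -1.89.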

How the data were processed

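The authors deposited one-color Agilent Feature Extraction (10.7.3.1, per the submitters' processing notes in the labels) files, with the intensity of each spot after background and spatial trend subtraction, and a linear table that differs from these intensities by a single factor on each array. The intensities of spots without an outlier flag were averaged as log2 per probe (39429 probes), and the 75th percentile of each array was subtracted. A probe counted as well above background when at least 50% of its spots carried that flag. Folds over a signal below background are bounds. Distances were taken between probe positions (mm9), not gene bodies. With 1 array per condition no model could be fitted, and spot errors do not cover differences between cultures. The paper's SAM test was not repeated.

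The members, gene lists and motifs were chosen with earlier results of these data known. The heat shock letters were shortened from a longer form after its share had been seen. Named were the 12 highest probes at 4 h, the 8 highest over 20 h and 32 h among those detected on both, the 8 with the largest fall to 20 h, members on a pathway list, the 3 on each side of the limit, and genes with several member probes. Gene names are those of the array design, and 221 members matched RefSeq by accession or symbol. Background and other scalings, flags, limits and windows were varied, with normexp (offset 50) in limma 3.58.1 and R 4.3.3. Under the other scalings the members were kept as they were. The number of members, the mirrored count and the shares at 20 h and 32 h were thus not recomputed for them. One marker gene is not reported here. The steps were tested on simulated data. Python 3.11.15, numpy 2.4.6, pandas 2.3.3, scipy 1.17.1 and matplotlib 3.10.9 were used.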

Additional observations from a re-analysis of the deposited data

How the results depend on the processing

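The number of members rests on the thresholds. It was 92 probes of 90 genes with the flag for positive and significant signals, 144 (139 genes) and 392 (379) with limits of -2.2 and -3.2, 2011 (1927) without a limit and 601 (580) with normexp background correction, and a window of 50 kb left 148 genes. The mirrored count of 46 became 14, 14, 98, 525 and 150 under the first 5 of these. The median lowest log2 rise at 4 h (2.78) was 4.84, 3.20, 2.19, 0.59 and 1.04 under them, and 2.41 and 2.38 with median and spike-in scaling. The median difference of 20 h from 4 h (-4.46) was -5.01, -4.79, -3.86, -1.62 and -1.56, and -3.99, -4.09, -3.86 and -3.85 with median, quantile, spike-in and no scaling. That of 32 h from 4 h (-4.20) was -4.56, -4.67, -3.62, -1.64 and -1.34, and -3.81, -3.65 and -3.74 with median, spike-in and no scaling. Detection at 20 h and 32 h was 31.5% and 25% with the flag for positive and significant signals, for which no share over all probes is given. With 1 limit for all arrays, which was chosen after seeing the data, it was 15.9% and 21.0%. The cause of these shifts was not tested, beyond fewer or more probes passing. Another 89 values, among them those with the deposited table, outlier spots kept, an either-strand window and no upstream rule, moved less. No difference changed sign, which the choice of members by their 4 h value largely fixes. The lowest rises of the 40 named probes ranged from 0.99 to 6.24 under 6 scaling and background alternatives. The rule chose members for a rise, which was at least 1.84 for each, so values above 0 are no measure of stability. The other scalings shifted the median of all probes detected on all arrays at 4 h by up to -0.40 (spike-in scaling). Members were not chosen again under these scalings, so the effect of such a shift on membership was not tested. The share switched on at 20 to 50 kb upstream was 4.62 times that beyond 200 kb and 2.23 times it without a limit. Signal over background limits every rise of a member probe at 4 h to a lower bound, and near -2.7 membership turns on the spot error. No paired analysis was possible because each condition had 1 array.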

Other observations

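The members in these paragraphs were picked after their values were seen, and no share of a gene group is given by them. *Dmp1* (dentin matrix protein) had log2 values of -6.82, -0.60, -7.23 and -6.77 on the 4 arrays (control, then 4 h, 20 h and 32 h; at least 17.8-fold at 4 h), *Scx* (scleraxis, a tendon transcription factor) had -5.26, -0.77, -4.34 and -4.26 (at least 15.8-fold), and *Chrdl2* (a BMP antagonist of cartilage) had -7.08, -1.13, -7.41 and -7.02. Of these only *Scx* stayed above background at 20 h and 32 h. The cartilage collagen genes *Col2a1* and *Col11a2* had -2.58 and -1.77 at 4 h and were at background on the other arrays. *Bfsp2* and *Bfsp1*, which encode beaded filament proteins of the lens, had -1.21 and -2.18 at 4 h (at least 11.7-fold and 6-fold).

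Among members that encode axonemal dyneins, the motors of cilia, *Dnahc10* had -6.59, -0.46, -6.98 and -6.48 (at least 19.7-fold at 4 h), *Dnahc17* -5.52, -1.17, -5.57 and -5.23 (at least 12.1-fold), and *Dnaic2* -6.58, -1.91, -6.98 and -5.67 (at least 7.21-fold). These 3 probes were detected at 4 h and on no other array. *Dnahc10* had 2 other probes and *Dnahc17* 3, and all 5 were at background in the control and at 4 h, so the rise was not shared by the other probes of these genes. *Ampd1* (AMP deaminase) had -1.12 at 4 h, *Tnnt2* (cardiac troponin T) -2.45 and *Myh3* (embryonic myosin heavy chain) -2.55, and a second *Myh3* probe, below the limit, had -2.91. None of these 3 genes was above background at 20 h or 32 h with a member probe, and the muscle markers *Myod1*, *Des*, *Myog* and *Ckm* were at background on all 4 arrays.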
